A study of Mus musculus with 4 samples.

Results

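Oxct1 and 5 other genes of ketone body metabolism (Bdh1, Bdh2, Acat1, Aacs and Slc16a1) were taken by symbol from a table of 25050 genes, which holds RNA sequencing values of HT-22, an immortal cell line derived from mouse hippocampal neurons. The samples fall into 2 groups of 2 libraries, and all cells were at passages 21 to 24. The wild type group carries no stated change, although the study's description also calls the controls uninduced cells. The other group overexpresses Nsmce1, a RING-type subunit of the SMC5/6 chromosome maintenance complex, from a construct described as inducible. The promoter that drives Nsmce1, the agent that induces it and whether the cells are 1 clone are not given in the sources used here, and separate cultures are not stated for the libraries of either group. P-values therefore measure the spread between these libraries, which may be technical.

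Oxct1 was selected on its difference between these groups, that is, on a value of this same comparison, and the other members because they act beside its enzyme. The Benjamini-Hochberg adjusted p of Oxct1 over all genes tested was 0.0477 by limma, a linear model with pooled variances, where the threshold was 0.05. It stood at place 29 of the 30 genes past that threshold. The gene just inside beside it was Plcb4 (adjusted p = 0.0496) and the first outside was Pld4 (adjusted p = 0.0515). These values selected Oxct1 and serve as a description. The members are accordingly described by their levels and differences, with no test of their own.

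Ketone bodies, acetoacetate and 3-hydroxybutyrate, are made in liver mitochondria from acetyl-CoA and are burned by the brain and other organs when glucose is scarce. They enter cells through monocarboxylate transporters. Inside mitochondria 3-hydroxybutyrate is oxidised to acetoacetate, acetoacetate takes a CoA from succinyl-CoA, and the resulting acetoacetyl-CoA is split into acetyl-CoA for the tricarboxylic acid cycle. In the cytosol acetoacetate can instead be activated directly and used to build sterols and fatty acids.

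The labels were checked first. Nsmce1 gave 1108 and 1206 normalised reads in wild type, against 17851 and 16525 with overexpression. The libraries held 25787452 and 31010351 reads in wild type against 32516117 and 44602989 with overexpression, so both overexpressing libraries were deeper. Mitochondrial genes gave 5.08% to 5.29% of the normalised reads. Of 10 neuron markers, Rbfox3, Snap25, Map2 and Nefl gave no value to analyse, Syt1, Stmn2 and Nefm had a mean under 10 normalised reads, and Gap43 had 23.9 and 44.2 in wild type against 7 and 0 with overexpression. The abundant neuron markers overlapped between the groups, Syn1 at 1186 and 1087 in wild type against 1024 and 1219 in overexpression and Tubb3 at 622 and 574 against 446 and 611. The 10 fibroblast and mesenchymal markers summed to 421842 to 516653. Of the 9 tested, 8 lay below 0, with a median log2 fold change of -0.09, and Fn1 lay above at 0.06. For 2 of the 9 both overexpressing libraries lay below both wild type ones, where 18.3% of all genes did. These were Postn (1079 and 710 in wild type against 624 and 407) and Col3a1 (81869 and 68553 against 64349 and 52554). The summed astrocyte markers were 5195 and 5124 in wild type against 6503 and 6796 with overexpression, most of it Slc1a3 and Gja1. Aqp4 and S100b had no value, and Gfap and Slc1a2 averaged under 10 normalised reads. Slc1a3 lay higher with overexpression (3302 and 2956 against 4537 and 4245) and Gja1 overlapped, while Aldh1l1 (57.8 and 65.3 against 14 and 12.4) and Aldoc (21.4 and 21.1 against 8 and 10.2) lay lower, and the median log2 fold change of the 4 tested was -0.48. The summed microglia and leukocyte markers were 2338 and 1970 in wild type against 1787 and 1643 in overexpression, most of it Tmem119, while Cd68 lay the other way (88.02 and 70.6 against 132 and 100.7) and Cx3cr1, Csf1r, Ptprc and Itgam averaged under 10. The oligodendrocyte (14666 to 16769), endothelial (43.8 to 69.5) and neuron (1492 to 1857) sums overlapped between the groups, as did the fibroblast sum. The 2 measured hepatocyte markers summed to 94.3 and 100.05 in wild type and to 111 and 129.9 in overexpression, and Alb, Apoa1, Ttr and 3 others gave no value. Of that pair Apob lay higher with overexpression (78.0 and 87.4 against 101 and 124.8) and Afp lower (16.3 and 12.6 against 10 and 5.11). The astrocyte, microglia and hepatocyte sums lay apart between the groups, each with tested markers on both sides of 0. The part of these markers and of the fibroblast ones in the results below was not tested. In bulk RNA, fewer cells of a type and less RNA per cell cannot be told apart.

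Promoter sequence was available for 5 of the 6 members, from RefSeq on GRCm38.p6, and Acat1 had no entry. Stretches of 3 members are shown because they differ in base composition among the members that lay lowest (Oxct1 and Aacs) and the transporter that did not. Each runs 5′ to 3′ on the + strand up to the last base before the earliest annotated start, and capitals mark CG dinucleotides. Oxct1 is at chr15:4026178-4026382, Aacs at chr5:125475623-125475813 and Slc16a1 at chr3:104638414-104638663.
Oxct1: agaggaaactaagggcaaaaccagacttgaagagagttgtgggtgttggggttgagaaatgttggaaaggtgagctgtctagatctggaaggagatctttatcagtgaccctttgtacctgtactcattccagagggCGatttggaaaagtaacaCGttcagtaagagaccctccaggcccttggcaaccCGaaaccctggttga
Aacs: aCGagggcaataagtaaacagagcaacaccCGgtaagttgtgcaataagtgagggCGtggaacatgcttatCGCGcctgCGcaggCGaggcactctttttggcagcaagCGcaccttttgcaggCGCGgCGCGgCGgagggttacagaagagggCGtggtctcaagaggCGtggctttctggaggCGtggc
Slc16a1: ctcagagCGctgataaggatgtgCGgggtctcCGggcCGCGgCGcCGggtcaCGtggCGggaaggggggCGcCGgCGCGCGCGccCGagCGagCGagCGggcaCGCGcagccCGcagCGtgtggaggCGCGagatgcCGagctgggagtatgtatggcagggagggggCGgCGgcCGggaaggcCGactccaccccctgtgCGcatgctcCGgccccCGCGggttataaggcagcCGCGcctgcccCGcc

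Over the 250 bases before the RefSeq start, Oxct1 had 6 CG dinucleotides, Aacs 22 and Slc16a1 37, where the median of 32851 such promoters was 6. Bdh2 had 5, and the pair of Bdh1 starts had 7 and 9. The stretches shown for Oxct1 and Aacs hold 205 and 191 of the 250 bases. The rest lie past the earliest annotated start and were counted too. Of 4 motifs searched on both strands, none of which overlapped another in these windows, the Slc16a1 promoter held an E-box (CACGTG, in 6.02% of all promoters) and a GC box (GGGCGG, in 32.7%). The Bdh2 promoter held a CCAAT box (CCAAT, in 33.8%). The nuclear receptor half-site (AGGTCA, in 14.0%) was in no member's window, and none of the 4 motifs was in the Oxct1, Aacs or Bdh1 windows. All 205 Oxct1 bases shown also lie within an exon of BC037032, a noncoding gene on the opposite strand, whose values are given with the neighbours of Oxct1 below.

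Oxct1 (ENSMUSG00000022186, chromosome 15) encodes succinyl-CoA:3-oxoacid CoA transferase, the mitochondrial enzyme that activates acetoacetate and is required to use ketone bodies. Its normalised read count was 15745 and 16000.4 in wild type replicates 1 and 2, and 10124 and 10469 in overexpression replicates 1 and 2. Both overexpressing libraries lay below both wild type libraries, and the replicates of each group lay close together. The means were 15873 ± 181 in wild type and 10296 ± 244 in overexpression (SD, n = 2 in each group). The level was 1.54-fold lower with overexpression, a log2 fold change of -0.62 with a standard error of 0.0686. On the log2 scale the replicates differed by 0.023 in wild type and by 0.048 in overexpression. These counts rested on 10124 to 15193 reads a library.

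The log2 fold change of Oxct1 ranged from -0.65 to -0.60 over 16 alternative analyses. Those that changed only the filter or the variances left it at -0.62 by construction. Since Oxct1 was chosen for this difference, its unchanged sign adds no support. The place of Oxct1 past the threshold held in 5 of the 16. It was lost with each library left out, where limma's adjusted p was 0.0652 to 0.295. It was also lost without a filter on low values (adjusted p = 0.103), without a variance trend (adjusted p = 0.347) and with voom on whole reads (adjusted p = 0.0572).

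**Figure D1:**
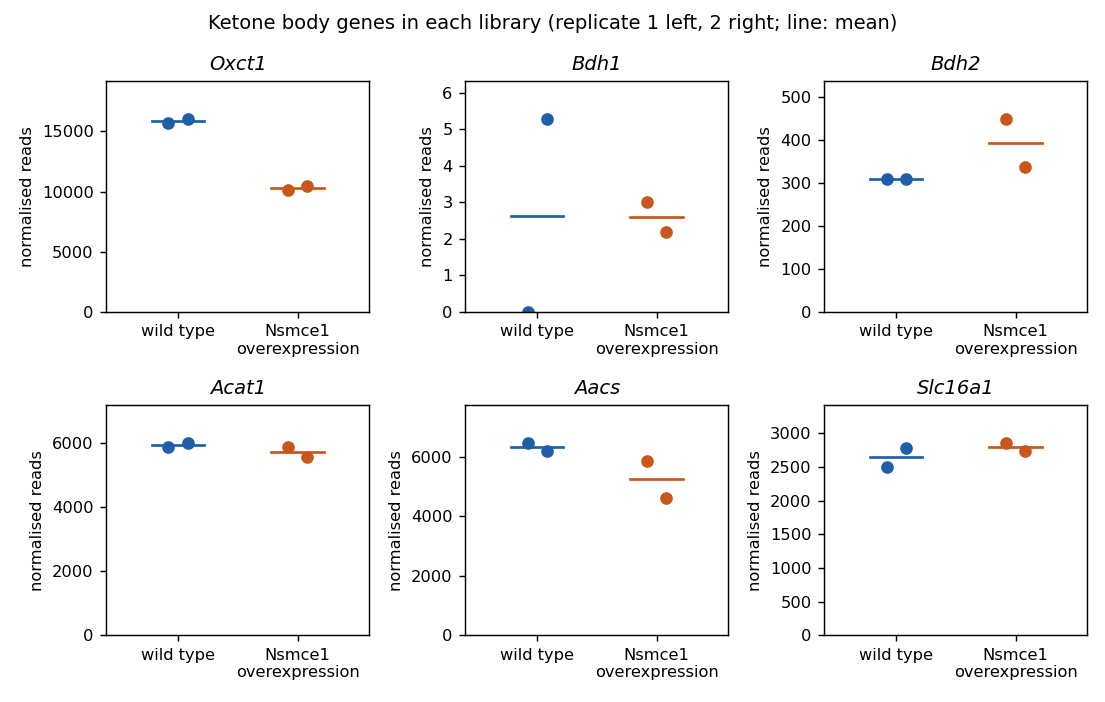
Normalised reads (vertical axis, linear and starting at 0 in each panel) of the 6 genes in the 2 wild type and 2 Nsmce1-overexpressing libraries; points are libraries and lines are group means. Oxct1 lies at 15745 and 16000.4 against 10124 and 10469, while the Slc16a1 groups overlap and Bdh1 stays under 6.

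Acat1 (ENSMUSG00000032047, chromosome 9) encodes the mitochondrial acetoacetyl-CoA thiolase, which splits the product of the Oxct1 enzyme into acetyl-CoA. It had 5880.03 and 5985 normalised reads in wild type against 5855 and 5569 in overexpression. The overexpressing libraries lay just below the wild type ones, by less than the wild type replicates differed for replicate 1. The log2 fold change was -0.06 (95% limits -0.23 to 0.12, SE 0.0730). Per kilobase of exon, Oxct1 stood at 2.72 and 2.71 times Acat1 in wild type, against 1.76 and 1.91 times with overexpression. Since Acat1 differed little between the groups, this ratio restates the difference in Oxct1.

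Bdh1 (ENSMUSG00000046598, chromosome 16), the mitochondrial dehydrogenase that interconverts 3-hydroxybutyrate and acetoacetate, was scarce, with 0 and 5 reads in wild type and 3 and 3 in overexpression. Its normalised read count was 0, 5.27, 3 and 2.19 in that order, at or close to the limit of 3 reads that a count of 0 allows in a library, so no fold is given. A fall or a small change in Bdh1 was not detectable at this depth, and neither overexpressing library exceeded 3 reads. Bdh2 (ENSMUSG00000028167, chromosome 3), a cytosolic member of the same short-chain dehydrogenase family, had 309.3 and 309.6 normalised reads in wild type against 447 and 336 in overexpression. The overexpressing libraries lay above the wild type ones but differed from each other by 0.41 on the log2 scale. The log2 fold change was 0.32 (95% limits -0.10 to 0.74), and leaving out overexpression replicate 1 or 2 gave 0.12 or 0.53.

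Aacs (ENSMUSG00000029482, chromosome 5) encodes acetoacetyl-CoA synthetase, the cytosolic enzyme that sends acetoacetate into lipid synthesis. It had 6457 and 6198 normalised reads in wild type against 5860 and 4627 in overexpression. Both overexpressing libraries were below the wild type ones, replicate 2 further than replicate 1. The log2 fold change was -0.28 (95% limits -0.58 to 0.01). Leaving out overexpression replicate 1 gave -0.45 and leaving out replicate 2 gave -0.11, so its size depended on which overexpressing library was counted.

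Slc16a1 (ENSMUSG00000032902, chromosome 3) encodes the monocarboxylate transporter MCT1, which carries lactate, pyruvate and ketone bodies across the plasma membrane. It had 2496 and 2789 normalised reads in wild type against 2853 and 2739 in overexpression. The groups overlapped. The log2 fold change was 0.08 (95% limits -0.14 to 0.30). These limits stop short of the size of the Oxct1 difference, but rest on 2 libraries a group whose spread may be technical.

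Of the 6 members, 5 reached the minimum for testing, which was a mean of 10 normalised reads, and Bdh1 did not. One of the 5, Oxct1, passed the threshold, lower in overexpression, where 0.193% of all genes passed it in either direction and 0.0901% in that one. Since that call chose the members, nothing is read from the count. Of the 4 other tested members, the groups did not overlap for 3 (Acat1 and Aacs lower, Bdh2 higher), where 39.1% of all genes had groups that did not overlap. Leaving out the median of each chromosome moved the 5 log2 fold changes by little, to -0.64 for Oxct1, 0.29 for Bdh2, -0.08 for Acat1, -0.29 for Aacs and 0.05 for Slc16a1.

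Levels were compared between genes only per kilobase of annotated exon. Oxct1 was highest, at a mean of 3535 normalised reads per kilobase over the 4 libraries, above 97.2% of the genes tested. Acat1 followed at 1549 and Aacs at 1501. Their ranges overlapped (1482 to 1593 for Acat1 and 1200.5 to 1675 for Aacs), so the order of this pair is not settled. Slc16a1 stood at 614, above 80.4% of the genes tested, and Bdh2 at 82.5. Bdh1 was last at 0.672. Apart from Acat1 and Aacs, no neighbouring members of this order had ranges that overlapped.

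The first list of related genes held 6 other genes of ketone body synthesis and use, of which 3 were tested. Of these, Acat2 and Hmgcs1 belong to the cytosolic sterol branch and Acat3 is a close copy of Acat2. Oxct2a, Oxct2b and Hmgcll1 were too low to test, so the list's values say nothing of them. None of the 3 tested passed the threshold in either direction (limma, with 2 at an unadjusted p under 0.05 and 0 calls with voom). Over all genes tested, 7.92% had an unadjusted p under 0.05 by limma, the share to set beside such counts here and below. All 3 genes lay lower in both overexpressing libraries than in both wild type ones, where 18.3% of all genes did. Their median log2 fold change was -0.37, beside 0.005 over all genes tested, and leaving out overexpression replicate 1 or 2 gave -0.46 or -0.27. Acat2, the cytosolic thiolase of sterol synthesis, had 9489 and 10115 normalised reads in wild type against 8012 and 7136 in overexpression (log2 fold change -0.37, SE 0.0871, limma adjusted p = 0.329). Acat3, its close copy, had 1112 and 1107 against 919 and 797 (log2 fold change -0.37, SE 0.110). In the annotation 39.1% of the 50-base windows of Acat2 transcripts and 52.5% of those of Acat3 also occur in other genes. Most are shared within the pair, and Tcp1 shares 290 windows of Acat2 and 525 of Acat3. Reads can therefore be exchanged among these genes, and the values of Acat2 and Acat3 are uncertain. For Acat1, Bdh2 and Slc16a1 no such window was shared, and for Aacs 2 of 3917 were. Bdh1 shared 11.1% of its windows with Gm15743, a gene on the opposite strand that gave no value, and Oxct1 shared 11.2% with BC037032.

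Hmgcs1, an enzyme of the cytosolic sterol branch, had 13878 and 14151 normalised reads in wild type against 13273 and 10658 in overexpression, a log2 fold change of -0.24. As with Aacs, overexpression replicate 2 was the lower one. Oxct2a and Oxct2b, the testis paralogues of Oxct1, had 1 library each above 0, at 2.51 and 2.19 normalised reads. Hmgcll1 ranged from 1.46 to 14.7.

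**Figure D2:**
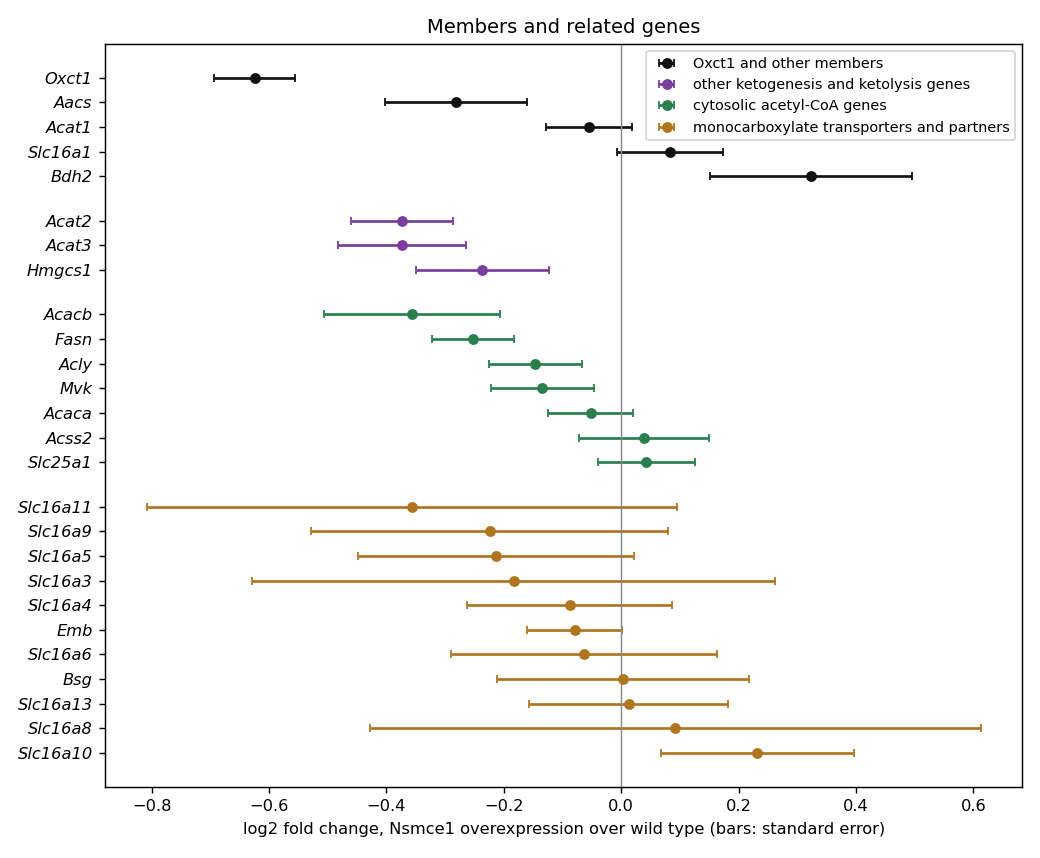
Log2 fold change of overexpression over wild type (horizontal axis, bars are standard errors) for the 5 tested members and the tested genes of 3 related lists. Oxct1 is the lowest at -0.62, Acat2 and Acat3 both lie at -0.37, and the transporters scatter from -0.36 to 0.23 around 0.

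The cytosolic genes that make and use acetyl-CoA and acetoacetyl-CoA lay mostly on the same side as Aacs. Of 7 tested, 0 passed the threshold (limma, with 1 at an unadjusted p under 0.05 and 0 calls with voom). In 5 of them both overexpressing libraries were below both wild type ones, beside the 18.3% of all genes, and the median log2 fold change was -0.13. It ranged from -0.19 to -0.08 with 1 library left out, the latter without wild type replicate 2. Fasn, the fatty acid synthase, stood at -0.25 (SE 0.0704) and Acacb, an acetyl-CoA carboxylase, at -0.36 (SE 0.150). Acly, the ATP citrate lyase that makes cytosolic acetyl-CoA from citrate, had 15129 and 16122 normalised reads in wild type against 14698 and 13537 in overexpression (log2 fold change -0.15). Slc25a1, the mitochondrial citrate carrier, and Acss2, which makes acetyl-CoA from acetate, lay at 0.04 and 0.04.

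Of the 11 tested monocarboxylate transporters and partner proteins, 0 passed the threshold (limma, 0 at an unadjusted p under 0.05 and 0 with voom). Their median log2 fold change was -0.08, with values from -0.36 to 0.23, and 4 lay above and 7 below 0. Bsg, encoding basigin, the chaperone that brings MCT1 to the cell surface, had 12029 and 18359 normalised reads in wild type against 16939 and 13085 in overexpression. Its log2 fold change was 0.003, with 95% limits of -0.52 to 0.53 that reflect the wide spread within each group. Emb, encoding embigin, a related chaperone, had 3878 and 3865 against 3829 and 3506 (log2 fold change -0.08). Slc16a10, a transporter of aromatic amino acids, stood at 0.23, and Slc16a13 at 0.01. Slc16a3, the lactate exporter MCT4, was scarce at 19.0 to 41 normalised reads. Slc16a4, Slc16a5, Slc16a6, Slc16a9 and Slc16a11 stood at -0.09, -0.21, -0.06, -0.22 and -0.36, and Slc16a8 at 0.09, with groups that overlapped for all but Slc16a9. Slc16a14 had 2.19 normalised reads in overexpression replicate 2 alone, and Slc16a7, Slc16a12, Slc5a8 and Slc5a12 gave no value to analyse.

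In the mitochondrial pathways that meet ketone body use at acetyl-CoA and succinyl-CoA, genes lay on both sides of 0. None of the 18 tricarboxylic acid cycle genes passed the threshold (limma, 0 at an unadjusted p under 0.05 and 0 with voom), and the median log2 fold change was -0.02. Both overexpressing libraries lay above both wild type ones for 2 of the 18 and below for 3, where 20.8% and 18.3% of all genes did. Cs, the citrate synthase, stood at 0.13 and Sdha, of succinate dehydrogenase, at -0.09. Suclg2, a succinyl-CoA synthetase subunit, stood at -0.30 (SE 0.228), with groups that overlapped. None of the 22 fatty acid oxidation genes passed either (2 at an unadjusted p under 0.05, 0 with voom), with 12 above and 10 below 0 and a median of 0.006. Cpt1a, the gate of fatty acid entry into mitochondria, had 5195 and 5025 normalised reads in wild type against 6256 and 6293 in overexpression (log2 fold change 0.30, SE 0.0712, limma adjusted p = 0.349). Acaa1b, a peroxisomal thiolase, stood at 0.75 from 45.3 to 85 normalised reads. Echs1, the mitochondrial enoyl-CoA hydratase, stood at -0.35 (SE 0.180), with groups that overlapped. Of the 22, both overexpressing libraries lay above both wild type ones for 6 and below for 3.

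Leucine and isoleucine breakdown, which also yields acetoacetate and acetyl-CoA, had 9 of 13 genes above 0, with a median log2 fold change of 0.05 and 0 calls (limma, 0 at an unadjusted p under 0.05 and 0 with voom). Both overexpressing libraries lay above both wild type ones for 5 of the 13 and below for 0, where 20.8% and 18.3% of all genes did. Mccc1, Bckdha and Auh stood at 0.17, 0.19 and 0.22. Among 15 genes of pyruvate and lactate use, 8 lay above and 7 below 0, with a median of 0.001 and 0 calls (limma, 2 at an unadjusted p under 0.05 and 0 with voom). Ldhb, the lactate dehydrogenase subunit common in oxidative tissues, had 244 and 258 normalised reads in wild type against 546 and 492 in overexpression. Its log2 fold change of 1.04 (SE 0.133) missed the threshold (limma adjusted p = 0.0646) and passed it with robust variances. Pdk4, a kinase that inhibits pyruvate dehydrogenase, stood at -0.31 and Pdp2, the opposing phosphatase, at -0.16. Of the 15, both overexpressing libraries lay above both wild type ones for 2 and below for 3.

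Regulators and receptors tied to ketone body metabolism had 7 tested genes of 15, with 0 calls (limma, 1 at an unadjusted p under 0.05 and 0 with voom) and a median log2 fold change of -0.05. Ppargc1a, a coactivator of mitochondrial genes, had 368 and 366 normalised reads in wild type against 252 and 307 in overexpression (log2 fold change -0.40, SE 0.152). Sirt3, the mitochondrial deacetylase, stood at 0.30, and Esrra, a nuclear receptor of mitochondrial genes, at -0.09. Ppara, the nuclear receptor that drives liver ketone body synthesis, had 3.77 normalised reads in wild type replicate 1 and 0 elsewhere. Hcar2, a cell surface receptor of 3-hydroxybutyrate, had no reads in wild type, against 4 and 2.19 normalised reads with overexpression. Those are 4 and 3 reads in the deeper libraries, close to the limit given for Bdh1, and Hcar2 was not tested.

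**Figure D3:**
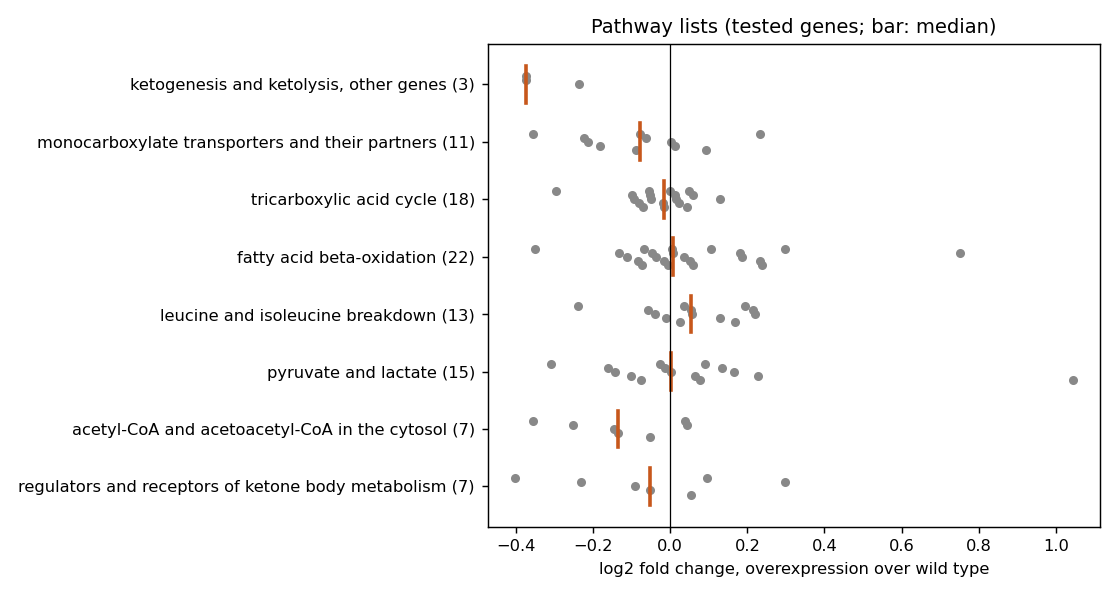
Log2 fold change of overexpression over wild type (horizontal axis) for every tested gene of the 8 pathway lists, with the number tested in brackets; points are genes and bars are medians. The medians run from -0.37 for the other ketone body list (Acat2, Acat3 and Hmgcs1) to 0.05 for leucine and isoleucine breakdown. Ldhb is the point at 1.04.

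The genes beside Oxct1 on chromosome 15 were examined because reads can be shared with them. BC037032 lies on the opposite strand and shares 467 exon bases with Oxct1, 12.6% of its exon length. It had 22.6 and 26.3 normalised reads in wild type against 12 and 8.03 in overexpression (log2 fold change -1.23, SE 0.451, and not past the threshold). That is 11 to 25 reads a library, beside at least 10124 for Oxct1. Whether strand entered the counting is not stated, and without it reads of the shared exon cannot be told apart. Gm15632, an antisense gene that also overlaps Oxct1, shares no exon bases with it and gave no value. Gm2093, a noncoding RNA gene next to BC037032, also lay lower, with 18.9 and 22.1 normalised reads against 7 and 10.2.

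The other neighbours lay nearer to 0. AW549877 stood at 0.14, and Card6, the first tested gene on the far side, at -0.07. Of the 10 nearest tested genes, 8 lay below 0, with a median log2 fold change of -0.10 and 0 calls (limma, and 0 with voom). By limma 2 had an unadjusted p under 0.05, beside 7.92% of all genes. The chromosome as a whole had a median of 0.008 over 548 genes.

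None of the 10 tested genes nearest to Bdh1 on chromosome 16 passed the threshold (limma, and 0 with voom). By limma 4 had an unadjusted p under 0.05, namely Ppp1r2, Acap2, Dlg1 and Senp5, beside 7.92% of all genes. In 9 of the 10 the log2 fold change lay above 0. The median over all 10 was 0.25, and the chromosome had a median of 0.17 over 448 genes. Ppp1r2, on one side, stood at 0.31 and Dlg1, on the other, at 0.30. Bdh1 itself, at 0 to 5 reads, gives no value to set against them. The neighbours of the other members had medians of -0.04 (Bdh2), 0.07 (Acat1), -0.07 (Aacs) and 0.01 (Slc16a1). The nearest tested genes were Cenpe (0.04) and Slc9b1 (-0.09) for Bdh2, Npat (0.11) and Cul5 (0.18) for Acat1, Bri3bp (-0.12) and Slc15a4 (-0.002) for Aacs, and Gm43582 (0.001) and Gm6485 (0.49) for Slc16a1. Other overlapping genes, Gm27551 in Aacs and Gm43581 and Gm43585 in Slc16a1, shared no exon bases with them and had at most 13.8 normalised reads.

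**Figure D4:**
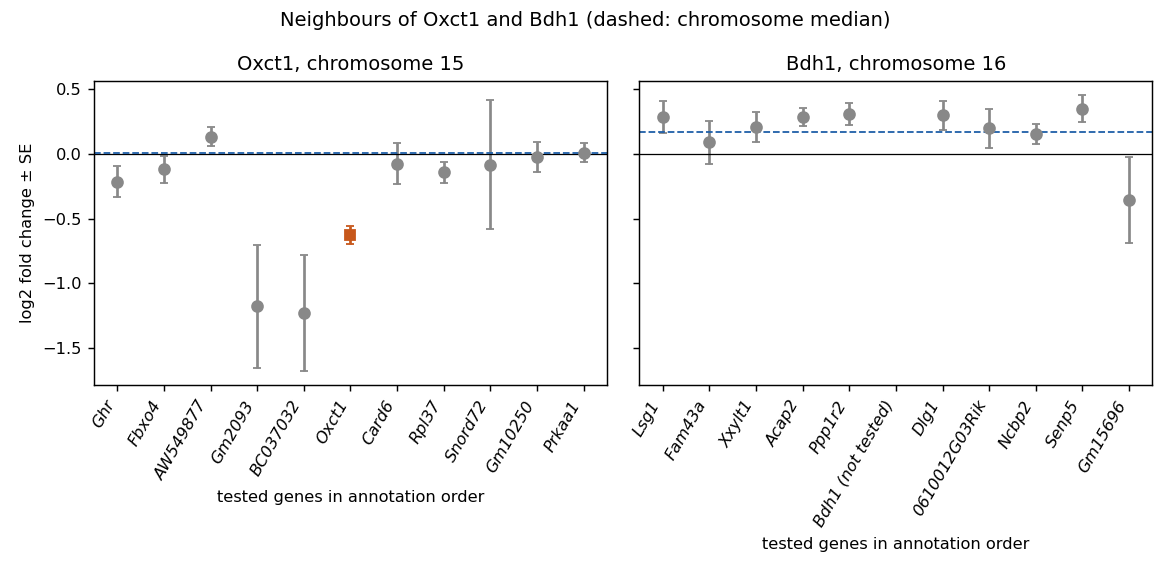
Log2 fold change with standard error (vertical axis) of the tested genes on both sides of Oxct1 and Bdh1 in annotation order; the orange square is Oxct1 and the dashed lines are chromosome medians. Oxct1 at -0.62 stands between BC037032 at -1.23 and Card6 at -0.07, and 9 of the 10 neighbours of Bdh1 lie above 0.

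The genes whose pattern over the 4 libraries came closest to that of Oxct1 were found by the root mean square difference of centred log2 values, among 11649 other genes that averaged 100 normalised reads or more. They were Soat2, a sterol acyltransferase (0.028), the immune receptor gene Havcr2 (0.035), Mat2a, which makes S-adenosylmethionine (0.056), Golim4, a Golgi membrane protein (0.058), and Gtdc1 (0.058). Mat2a was the nearest to Oxct1 in abundance, with 13415 and 12345 normalised reads in wild type against 8293 and 8217 in overexpression. With 4 libraries such a likeness says little more than that their group differences were of like size, from -0.66 to -0.56 on the log2 scale.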

How the data were processed

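The deposited table gives 1 value per gene and library. From the values, it holds log2 values that the authors made from normalised reads with 1 added. Undoing the log2 gave whole multiples of 1 step in 100% of values (tolerance 0.001 read). HISAT, Cufflinks and mm9 are named in the submitters' processing notes, which state neither the counting nor the use of strand. Per the labels' protocols, libraries were made from Trizol RNA with a TruSeq kit and sequenced by BGISEQ-500 protocols.

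Genes with a mean of at least 10 normalised reads (15540) were fitted with limma 3.58.1 in R 4.3.3 on the deposited log2 values, with a mean-variance trend and group as the only term. P-values are two-sided and Benjamini-Hochberg adjusted over all genes tested, with a threshold of 0.05. The design table allowed for counts or normalised values, and the latter branch was used. Fold changes were taken on log2(value + 1), which makes those of low genes too small. Chromosomes, exon lengths, overlaps and neighbours came from GENCODE M21 (GRCm38) by identifier, promoters from RefSeq; this build differs from mm9, so gene coordinates are not given. The members and lists were chosen with earlier results of these data known. A few genes are not reported here and were left out of the lists after the fit, with their values known. Named genes were the members, Nsmce1, the tested genes of the ketone body and transporter lists, the 3 with the smallest p of each other list, overlapping and nearest genes, and the 5 closest to Oxct1. The genes at the threshold, the untested genes at low counts, Slc25a1, Acss2, Acap2, Senp5 and the marker genes were named after their values were seen. The fit was tested on simulated data. With 2 libraries a group, leaving one out leaves a lone sample that is assumed to vary like the other group.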

Additional observations from a re-analysis of the deposited data

How the results depend on the processing

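The number of genes called went from 30 to 16 without a filter, 18 with quantile normalization, 9 by limma without trend, 72 with robust variances and 11 at an adjusted p under 0.01. It ranged from 2 to 75 with 1 library left out: 2 and 9 without wild type replicates 1 and 2, and 51 and 75 without overexpression replicates 1 and 2. With the replicate number as a block it was 60, and Oxct1 stayed past the threshold (log2 fold change -0.62, limma adjusted p = 0.0315). The numbers share no stated origin, and same-numbered libraries did not deviate together (r = 0.006 across 11650 genes, which are not independent).

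The log2 fold change of Oxct1 lost its call at -0.62 with a pseudocount of 0.1, no filter, a mean of at least 50 normalised reads, a common median, limma without trend and voom, at -0.61 with quantile normalization, and at -0.60 to -0.65 with 1 library left out. Its adjusted p over the 16 alternatives ran from 0.0215 to 0.347. The other 4 tested members kept their sign in all 16, although settings that changed only the filter or the variances could not alter it. Slc16a1 stood at 0.003 without wild type replicate 1. The median of the ketone body list, over Acat2, Acat3 and Hmgcs1, kept its sign in all 13 of its alternatives. Those of the transporter, tricarboxylic acid, fatty acid, pyruvate and regulator lists did not, and lay between -0.16 and 0.09. Depth limits Bdh1 and the Oxct2 genes, which had too few reads to show a fall or a small difference.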
